A study of Arabidopsis thaliana with 4 samples.

Results

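The CIPK kinases, serine/threonine kinases of plant calcium signalling, are described here in Arabidopsis thaliana through 10 genes: CIPK1, CIPK3, CIPK6, CIPK8, CIPK9, CIPK11, CIPK14, CIPK21, CIPK23 and CIPK24. The family holds 26 genes, and 23498 loci had a value in any library. The 10 were taken by locus from the files, because the family had lain low in the abh1 mutant in earlier results of the same data. The difference between mutant and wild type and the level in abh1 were thus used to choose them, and both are given as a description, with no test.

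A CIPK, or CBL-interacting protein kinase, is switched on when a calcineurin B-like protein (CBL) binds calcium and docks on a short motif in the regulatory part of the kinase, which otherwise holds the catalytic part shut. Each CBL also brings its kinase to a membrane, the plasma membrane or that of the vacuole, where the pair phosphorylates channels, transporters and pumps. The pathway is best known for salt tolerance, for the uptake of potassium and nitrate, and for responses to abscisic acid.

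Uncapped, polyadenylated RNA was sequenced by GMUCT, which reads the front ends of RNAs that have lost their cap, in 4 libraries. The abh1 group (2 libraries) carries loss of function of ABH1, which encodes the large subunit of the nuclear cap-binding complex, and the Col-0_CHX group (2 libraries) is labelled wild type. Both have the Col-0 background, both are labelled as immature inflorescence from plants of about 4 weeks grown with 16 h of light and 8 h of dark, and both are labelled as not otherwise treated, although the titles of the wild-type group carry CHX, an abbreviation the labels do not explain. Genotype and CHX therefore cannot be told apart. Nothing says that the replicates were separate plants, or how many plants were pooled, so p-values reflect the spread of these libraries alone, which may be technical. The value given for each gene model is the co-translational RNA decay index, a ratio without a unit. Decay during translation is known as the process in which an exonuclease follows the last ribosome along an uncapped message, but the formula of the index, and so what a value above or below 1 stands for, is not stated in the sources used.

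An index was given for 22495 and 22492 loci in abh1 and for 18321 and 18215 in Col-0_CHX, and 17049 loci were shared by all 4 libraries. The labelled tissue was checked against 16 floral genes. All 16 were listed in each abh1 library. SEP4 alone was listed in both Col-0_CHX libraries, AG and SHP1 in the first and SEP1 in the second. The organ identity genes AP1, AP3 and PI had none in either Col-0_CHX library. Of all loci in both abh1 libraries 78.0% were also in both Col-0_CHX libraries, against 6.25% of the 16 floral genes. The check thus did not bear out the labelled tissue for Col-0_CHX. A difference in tissue between the groups could not be told apart from genotype and CHX. What part this plays in the results below was not tested, and whether an index differed because other cells held the transcript or because each cell treated it differently cannot be told apart in whole tissue. The median log2 difference over all loci, abh1 minus Col-0_CHX, was -0.23, so a gene at that value stood where most genes did. The index of ABH1 itself, 1.01 and 1.19 in the mutant against 1.86 and 1.62 in Col-0_CHX, is no check of the genotype.

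All 10 CIPK genes had an index in all 4 libraries. Both abh1 libraries lay below both Col-0_CHX libraries for 8 of the 10, above them for 1, CIPK11, and overlapped them for 1, CIPK24. The same order, abh1 below with no overlap, was found at 45.2% of all 17049 loci, and abh1 above with no overlap at 10.7%. Because the genes were chosen on this contrast, nothing is read from the counts. The median log2 difference of the 10 was -0.45, which is -0.22 relative to all loci, and single genes ran from -0.68 to 0.18. Of the 10, 9 were lower in abh1 as deposited and with each library centred on its median, and 8 with quantile normalization, where CIPK23 moved to 0.015. Over all loci 72.2% were lower as deposited. That share was not taken after centring or quantile normalization, here or for the lists below. Centring takes out the shift of whole libraries, and 8524 of the 17049 loci lay below the median difference of all loci. The 72.2% is thus no measure for counts after centring or quantile normalization. The median index of the 10 was 1.16 and 1.13 in the abh1 libraries and 1.60 and 1.47 in the Col-0_CHX libraries. Over all 17049 loci it was 1.15 and 1.14 in abh1 and 1.37 and 1.29 in Col-0_CHX. By the median, the 10 thus lay near all loci in abh1 and above them in Col-0_CHX.

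**Figure D1:**
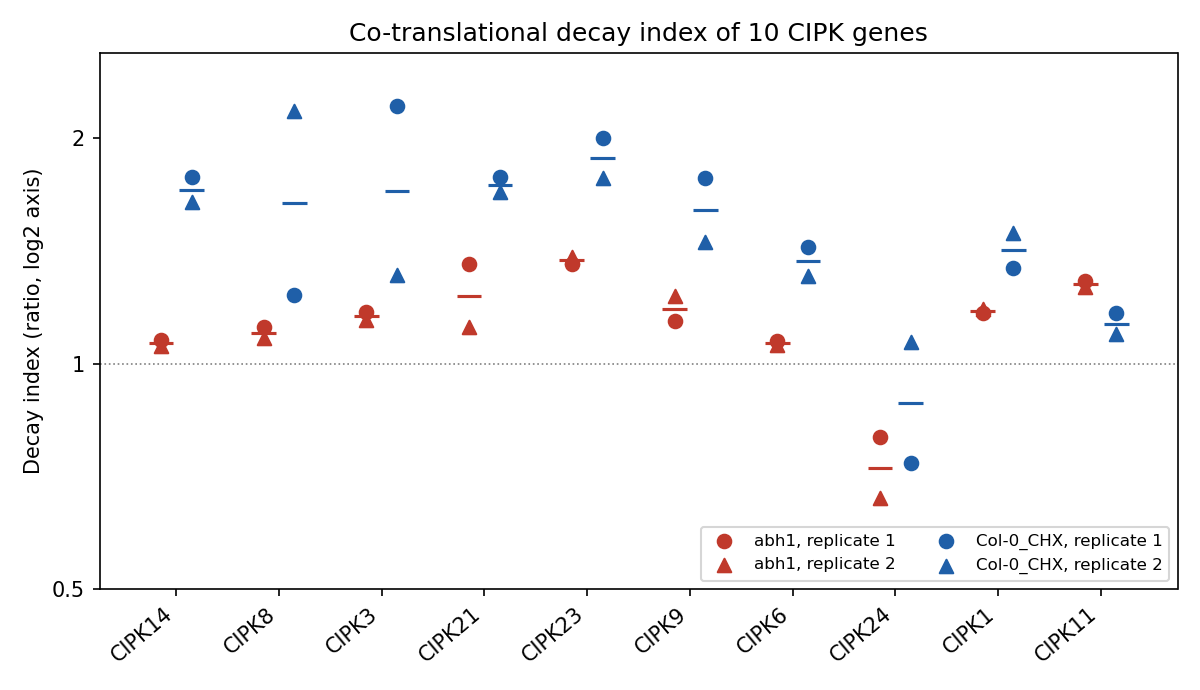
Co-translational decay index (a ratio, on a log2 axis) of the 10 CIPK genes in each library, ordered by log2 difference; points are libraries, short bars are the geometric mean of the 2 libraries of a group. The abh1 points lie below the Col-0_CHX points for 8 genes, above them for CIPK11, and among them for CIPK24, which has the lowest index in each library.

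Among the kinases of salt tolerance, CIPK24 (AT5G35410), better known as SOS2, works with the calcium sensor SOS3 to activate the sodium exporter SOS1. Its index was 0.799 and 0.662 in abh1 and 0.738 and 1.07 in Col-0_CHX. The first Col-0_CHX library lay between the abh1 libraries, so the groups overlapped. The log2 difference was -0.29 ± 0.26 (SE, 2 libraries per group). Here and below the SE is limma's, which draws each gene's spread toward that of all loci. The difference ran from -0.56 without the first Col-0_CHX library to -0.020 without the second. It was -0.068 with each library centred on its median and -0.42 with quantile normalization. CIPK24 was the only one of the 10 below 1 in any library. CIPK8 (AT4G24400), which also acts on SOS1 and in the response to nitrate, had 1.12 and 1.08 in abh1 and 1.23 and 2.18 in Col-0_CHX. The groups did not overlap, but the lower Col-0_CHX value stood close to abh1. Its log2 difference of -0.57 ± 0.33 (SE) became -0.16 without the second Col-0_CHX library and -0.98 without the first, -0.35 after centring and -0.31 with quantile normalization.

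The kinases of potassium and nitrate supply are CIPK23 and CIPK9. CIPK23 (AT1G30270) phosphorylates the potassium channel AKT1 and the nitrate transporter NRT1.1. Its index was 1.36 and 1.39 in abh1 and 2.01 and 1.77 in Col-0_CHX, which differ by -0.45 ± 0.15 (log2, SE). The difference was -0.23 after centring and 0.015 with quantile normalization. It had the highest mean of the 10 in both groups. CIPK9 (AT1G01140), its close relative, acts at the vacuole when potassium is short. It had 1.14 and 1.23 in abh1 and 1.77 and 1.45 in Col-0_CHX, with a log2 difference of -0.44 ± 0.17 (SE) and no overlap, and was -0.22 after centring and -0.12 with quantile normalization. The value 1.23 was held by 12 loci of that library.

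CIPK6 and CIPK11 act on other plasma membrane proteins. CIPK6 (AT4G30960, SIP3 in RefSeq) helps bring the potassium channel AKT2 to the plasma membrane. It had 1.07 and 1.06 in abh1 and 1.43 and 1.31 in Col-0_CHX, and its log2 difference was -0.36 ± 0.14 (SE), -0.14 after centring and -0.17 with quantile normalization. CIPK11 (AT2G30360, SIP4 in RefSeq, also called PKS5) holds back the proton pump AHA2. It had 1.29 and 1.27 in abh1 and 1.17 and 1.09 in Col-0_CHX, so the log2 difference was 0.18 ± 0.14 (SE). It was the only one of the 10 with a higher index in both abh1 libraries than in both Col-0_CHX libraries. The difference was 0.40 after centring and 0.43 with quantile normalization.

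CIPK21 (AT5G57630) acts with CBL sensors at the vacuole under salt and osmotic stress. Its index was 1.36 and 1.12 in abh1, the widest gap between abh1 libraries among the 10 at 1.21-fold, and 1.77 and 1.70 in Col-0_CHX. The groups did not overlap, and the log2 difference was -0.49 ± 0.17 (SE), -0.27 after centring and -0.13 with quantile normalization.

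CIPK1, CIPK3 and CIPK14 have been tied to abscisic acid, cold, osmotic stress or sugar. CIPK1 (AT3G17510), which binds CBL1 and CBL9, had 1.17 and 1.19 in abh1 and 1.34 and 1.49 in Col-0_CHX. Its log2 difference of -0.27 ± 0.14 (SE) was close to the median of all loci. It was -0.047 after centring and -0.0021 with quantile normalization. CIPK3 (AT2G26980), which acts in abscisic acid and cold responses, had 1.17 and 1.14 in abh1 and 2.21 and 1.31 in Col-0_CHX. The difference of -0.56 ± 0.31 (log2, SE) was -0.18 without the first Col-0_CHX library and -0.93 without the second, -0.34 after centring and -0.23 with quantile normalization. CIPK14 (AT5G01820, SR1 in RefSeq) had 1.08 and 1.06 in abh1 and 1.78 and 1.64 in Col-0_CHX. It had the lowest log2 difference of the 10, -0.68 ± 0.14 (SE), a 1.60-fold higher index in Col-0_CHX, and lay between -0.74 and -0.63 with any 1 library left out. After centring it was -0.46 and with quantile normalization -0.41. Its second abh1 value was shared by 31 loci of that library.

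The order of the levels was only partly resolved. In abh1 the order by geometric mean was CIPK23, CIPK11, CIPK21, CIPK9, CIPK1, CIPK3, CIPK8, CIPK6, CIPK14 and CIPK24, from 1.37 to 0.727. Of the 9 pairs of neighbours in that order, 5 overlapped between libraries. The 4 pairs that stood apart were CIPK23 and CIPK11, CIPK3 and CIPK8, CIPK8 and CIPK6, and CIPK14 and CIPK24. In Col-0_CHX the order was CIPK23, CIPK21, CIPK14, CIPK3, CIPK8, CIPK9, CIPK1, CIPK6, CIPK11 and CIPK24, from 1.88 to 0.888. There 7 of 9 neighbouring pairs overlapped, and only CIPK6 with CIPK11 and CIPK11 with CIPK24 stood apart. CIPK23 came first and CIPK24 last in both groups, while CIPK14 was 9th in abh1 and 3rd in Col-0_CHX and CIPK11 was 2nd and 9th.

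The libraries list different numbers of loci, so ranks within a library were taken over the 17049 shared loci. CIPK24 stood at percentiles 5.85 and 2.71 in abh1 and at 5.49 and 25.1 in Col-0_CHX. Over all loci listed in each library it stood at 10.4 and 6.26 and at 7.41 and 27.1. Over the shared loci CIPK23 stood between 81.0 and 85.0 in all 4 libraries. CIPK14 stood at 35.0 and 32.1 in abh1 and at 76.5 and 75.9 in Col-0_CHX. CIPK11 stood the other way, at 74.9 and 72.7 in abh1 against 30.1 and 27.6. CIPK6 had 34.5 and 33.1 against 55.3 and 51.7, a smaller gap. For the other members at least 1 abh1 library lay within or above the range of the Col-0_CHX percentiles, as with CIPK8, at 44.5 and 37.2 against 36.8 and 90.4. These percentiles follow from the values that chose the genes and are a description.

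**Figure D2:**
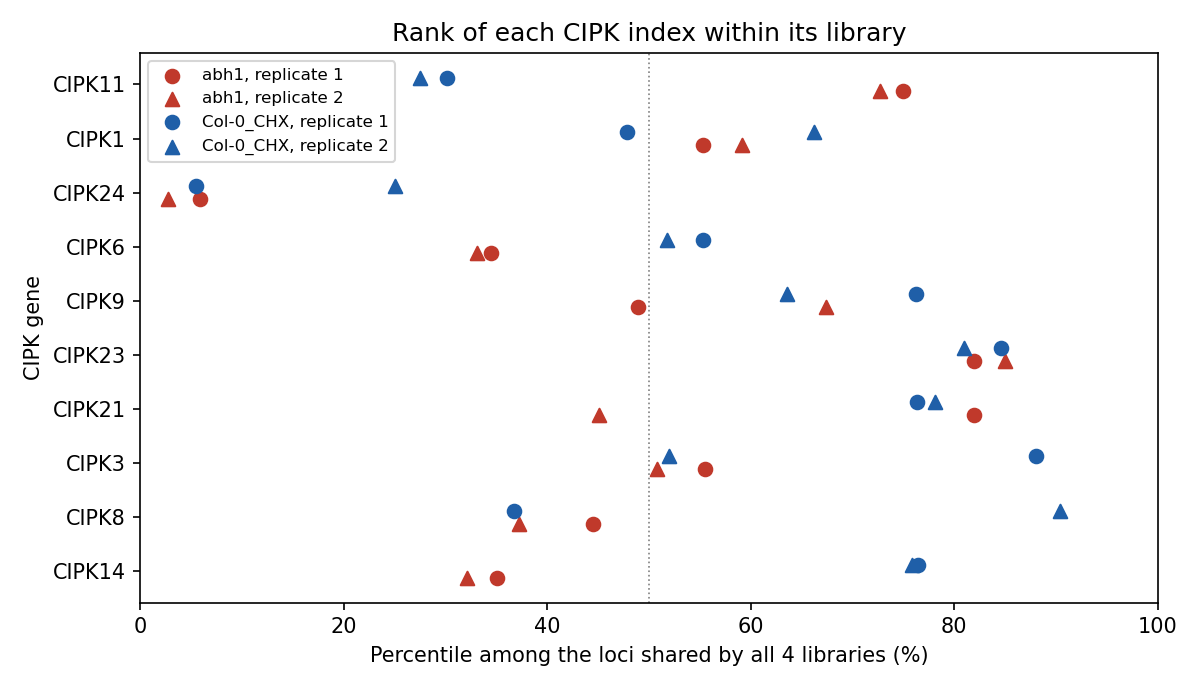
Percentile of each CIPK index among the 17049 loci shared by all 4 libraries (0 to 100%); red points are abh1 libraries, blue points Col-0_CHX libraries, circles replicate 1 and triangles replicate 2. CIPK14 lies at 35.0 and 32.1 in abh1 and at 76.5 and 75.9 in Col-0_CHX, CIPK11 lies the opposite way, and CIPK23 lies between 81.0 and 85.0.

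By the median, the 10 genes varied less between replicate libraries of abh1 than between those of Col-0_CHX, as did all loci. The median fold between the replicates was 1.02 in abh1 and 1.12 in Col-0_CHX. Over all loci it was 1.11 and 1.25, and over those without repeated values 1.07 and 1.14. In abh1 2 of the 10, CIPK21 and CIPK24, differed by over 1.2-fold, and in Col-0_CHX 4 did, CIPK3, CIPK8, CIPK9 and CIPK24, up to 1.76-fold for CIPK8. Over all loci 29.2% did in abh1 and 56.2% in Col-0_CHX, and without repeated values 14.5% and 38.6%. Across the 10 genes the log2 indices of the replicates had a Pearson r of 0.91 in abh1 and 0.44 in Col-0_CHX (n = 10 genes, which share their libraries and are no replicates). Across all loci r was 0.43 and 0.24, and across those without repeated values 0.76 and 0.55. CIPK24 lay apart from the rest of the 10, at a mean of 0.727 in abh1 and 0.888 in Col-0_CHX. The next gene had 1.07 and 1.13. A gene so far from the rest can carry much of r, which was not taken without CIPK24. The r of the 10 is thus no sign that replicates rank these genes better than all loci. The depth behind an index is unknown, so no counting interval can be given. Exact values that recur in over 10 loci of a library, were held by 2 of the 10, CIPK9 and CIPK14, and by 61.5% of the 17049 loci.

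Every one of the 10 but CIPK24 had an index above 1 in all 4 libraries, as did 50.4% of all loci. By gene structure, as known for the family and not read from the files, CIPK1, CIPK3, CIPK8, CIPK9, CIPK21, CIPK23 and CIPK24 have many introns and CIPK6, CIPK11 and CIPK14 few or none. All 7 with many introns were lower in abh1, with differences from -0.57 to -0.27 and a median of -0.45, and all except CIPK24 without overlap. With quantile normalization CIPK23 was no longer lower. Of the 3 with few introns, 2 were lower and CIPK11 higher. These genes span the range of the 10, from -0.68 to 0.18. In the whole family 8 of 9 with many introns and 11 of 14 with few, among those in all 4 libraries, were lower. Over all loci 72.2% were lower and 45.2% were lower without overlap. The 10 were chosen on this contrast, so nothing is read from these counts. The difference between the classes was not tested.

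The other 16 CIPK genes were all listed in each abh1 library, and 13 of them in each Col-0_CHX library. CIPK13 and CIPK19 had none in Col-0_CHX and CIPK16 had one in the first library alone, at 3. Among the 13, 10 were lower and 3 higher in abh1 as deposited, where 72.2% of all loci were lower. After centring 9 were lower, and with quantile normalization 5. The median log2 difference of the 13 was -0.30, or -0.073 relative to all loci, -0.49 without the first abh1 library and 0.072 with quantile normalization. By limma's test 0 of the 13 passed an adjusted p of 0.05, where 0% of all loci did, and 3 were lower and 1 higher at an unadjusted p under 0.05, against 17.2% and 2.84% of all loci. Why these genes were not among the 10 is not stated, so neither count is an independent check of the family.

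**Figure D3:**
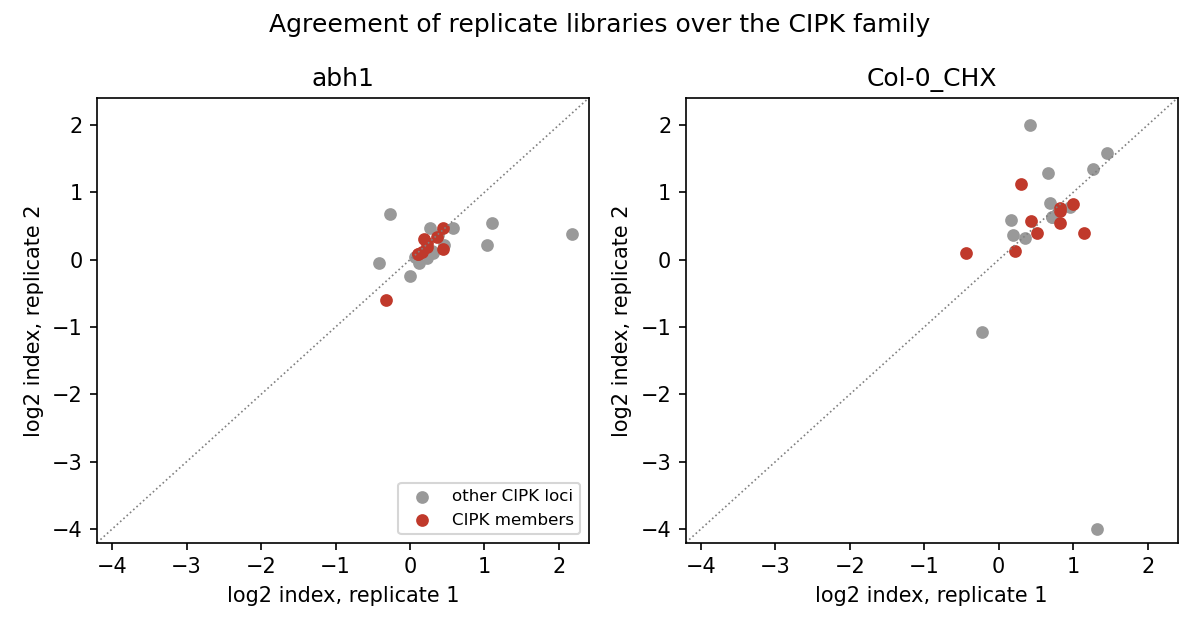
Log2 decay index in replicate 2 against replicate 1 for the CIPK family in abh1 (left) and Col-0_CHX (right); red points are the 10 genes described, grey points the other family members, and the dotted line marks equal values. The 10 lie near the line in abh1 (r = 0.91) and are more scattered in Col-0_CHX (r = 0.44), where the farthest grey point is CIPK18. Both r values include CIPK24, the lowest red point in each panel.

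CIPK5 and CIPK25 had the largest differences toward lower values in the family. CIPK5 had 1.17 and 1.01 in abh1 and 2.41 and 2.54 in Col-0_CHX, with a log2 difference of -1.18 ± 0.15 (SE, limma adjusted p = 0.167). CIPK25 had 1.24 and 1.07 against 2.75 and 2.98, a difference of -1.32 ± 0.16 (limma adjusted p = 0.167). Each lay far below Col-0_CHX in both abh1 libraries, further than any of the 10, and did not pass over all loci. CIPK26, the close relative of CIPK3 that phosphorylates the oxidase RBOHF, had 1.1 and 1.05 against 1.61 and 1.79. Over the 6572 loci without repeated values, where 8.03% of loci were called lower and 0.593% higher, CIPK5 and CIPK26 passed limma's test with an adjusted p of 0.0383 and 0.0455, and no locus of that set passed after centring or when either abh1 library was left out. With a library left out, the spread is that of the other group alone and the single library left is taken to have that same spread, so nothing is read from those counts.

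On the other side, CIPK2 had 2.15 and 1.46 in abh1 and 0.857 and 0.476 in Col-0_CHX, a difference of 1.47 ± 0.40 (log2, SE, limma adjusted p = 0.202). It was the only other family member higher in abh1 without overlap. CIPK17 and CIPK18 were higher on average but overlapped. CIPK18 had 1.05 and 1.03 in abh1 against 2.5 and 0.0625, and CIPK17 had 4.5 and 1.3 against 1.12 and 1.5. Libraries of one group differed by up to 40-fold in these, and 7 of the 13 held a repeated value.

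CIPK7, a partner of CBL1 in the cold, was close between replicates, with 1.3 and 1.3 against 1.64 and 1.55 and a difference of -0.30 ± 0.13 (log2, SE, limma adjusted p = 0.315). CIPK12 had 1.21 and 1.39 against 1.65 and 1.55, and CIPK4 had 1.00 and 0.846 against 1.14 and 1.28. Both were lower in abh1 without overlap. CIPK10 had 1.49 and 1.39 against 1.58 and 2.43, CIPK22 had 1.38 and 1.17 against 1.33 and 4.00, and CIPK20 had 2.06 and 1.16 against 1.95 and 1.73. Of these only CIPK10 did not overlap. CIPK14 and CIPK15, a kinase that holds back abscisic acid responses, are neighbouring genes. CIPK15 had 1.23 and 1.09 in abh1 and 1.28 and 1.25 in Col-0_CHX, a difference of -0.13 ± 0.15 (log2, SE), against the -0.68 of CIPK14. The difference between the neighbours was not tested.

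The CBL proteins are the calcium sensors that dock on these kinases. As deposited they were lower in abh1 at 5 of the 6 loci in all 4 libraries, against 72.2% of all loci. The count was 4 after centring and 3 with quantile normalization. Their median log2 difference of -0.25 was close to that of all loci. It was -0.11 without the first abh1 library and -0.54 without the second. By limma's test 0 passed, and 1 was lower and 0 higher at an unadjusted p under 0.05, against 17.2% and 2.84% of all loci. That was CBL3, a sensor of the vacuole membrane, with 0.839 and 0.953 in abh1 against 1.31 and 1.69 (log2 difference -0.73 ± 0.20 SE, limma adjusted p = 0.206). Its near twin CBL2 had 1.08 and 1.42 against 1.56 and 1.43. CBL1 and CBL9, the plasma membrane sensors that bring CIPK23 to AKT1, overlapped between the groups. CBL1 had 1.2 and 0.971 against 1.1 and 1.06, and CBL9 had 0.918 and 1.55 against 1.37 and 1.42. CBL4, better known as SOS3 and the partner of CIPK24, had 0.862 and 1.06 against 1.60 and 0.750. CBL10, its counterpart in the shoot, had 0.765 and 0.689 against 0.875 and 1.57. CBL5 and CBL6 had an index in 1 Col-0_CHX library, CBL8 in none, and CBL7 in no library.

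**Figure D4:**
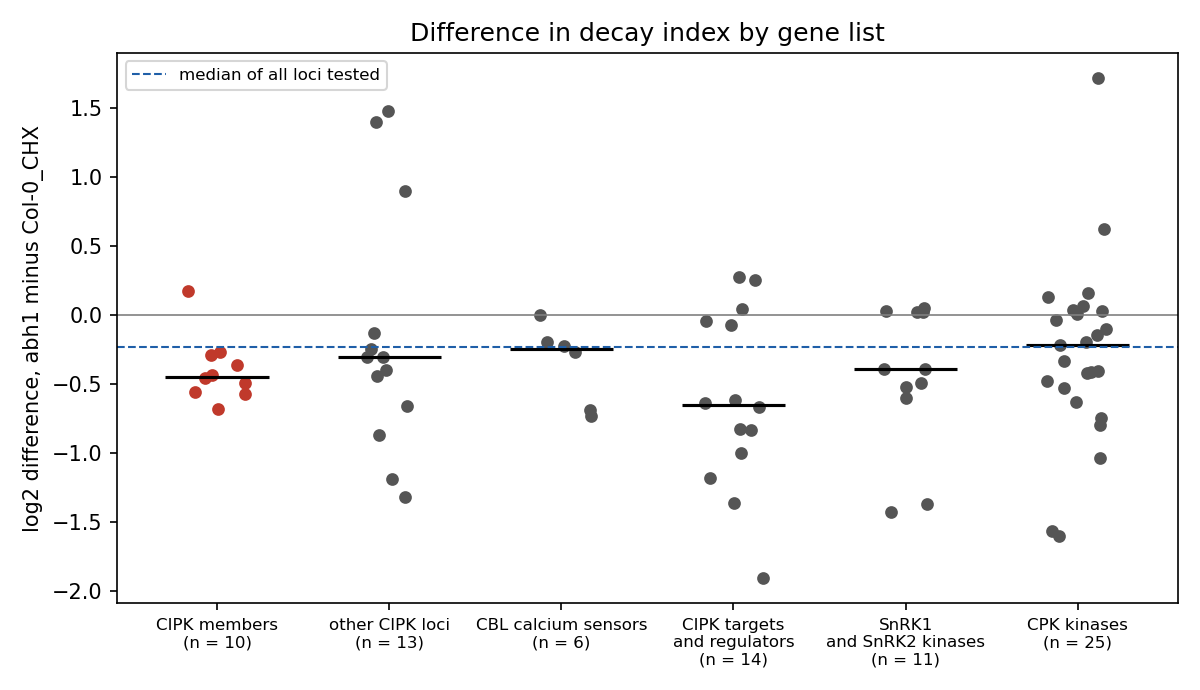
Log2 difference in decay index, abh1 minus Col-0_CHX, for each locus with an index in all 4 libraries; red points are the 10 CIPK genes, grey points the other lists, black bars list medians, and the dashed line the median of all loci (-0.23). The 10 lie between -0.68 and 0.18, and the points of all lists but the CBL sensors spread further.

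Of 18 proteins that CIPK kinases act on or that regulate them, 14 had an index in all 4 libraries. As deposited 11 of these were lower in abh1, against 72.2% of all loci. The count was 9 after centring and 9 with quantile normalization. Their median log2 difference was -0.65, where that of all loci was -0.23, and -0.34 over the 8 without repeated values. None passed limma's test over all loci, and 5 were lower and 0 higher at an unadjusted p under 0.05, against 17.2% and 2.84% of all loci. SOS1, the sodium exporter that CIPK24 activates, had 1.02 and 0.917 in abh1 against 1.58 and 1.86 (log2 difference -0.83 ± 0.17 SE, limma adjusted p = 0.172). AKT2, the channel that CIPK6 brings to the membrane, had 1.38 and 1.41 against 2.32 and 2.1 (limma adjusted p = 0.175). AHA2, the proton pump held back by CIPK11, had 1.11 and 1.16 against 1.86 and 1.64 (limma adjusted p = 0.185). GI, a clock protein that binds CIPK24 and keeps it inactive, had 1.02 and 1.04 against 1.64 and 2.06 (limma adjusted p = 0.176). CAX1, a calcium exchanger of the vacuole that CIPK24 also regulates, had 1.07 and 1.16 against 1.91 and 1.58 (limma adjusted p = 0.198). All 5 were lower in both abh1 libraries than in both Col-0_CHX libraries, as were 45.2% of all loci. Over loci without repeated values AKT2 and GI passed limma's test (adjusted p = 0.0444 and 0.0479), where 8.03% of loci were called lower. No locus of that set passed after centring.

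The targets of CIPK23 varied. AKT1 had 0.400 and 1.57 in abh1 against 1.32 and 2.44, too spread to order the groups. NRT1.1 had 1.30 and 1.71 against 1.15 and 1.37, a log2 difference of 0.25 ± 0.22 (SE, limma adjusted p = 0.567). The ammonium transporter AMT1;1 had 1.13 and 0.957 against 1.09 and 1.09. Its relative AMT1;2 had 1.27 and 0.903 against 5.67 and 1.33, and the anion channel SLAC1 had 0.900 and 0.714 against 1.2 and 7.5. Both were lower in abh1 without overlap, with log2 differences of -1.36 ± 0.81 and -1.90 ± 1.00 (SE), wide spread between the Col-0_CHX libraries and repeated values. SLAH3, an anion channel related to SLAC1, had 0.878 and 1.19 against 1.01 and 1.1 and overlapped. HAK5, a potassium transporter of the root, had no index in any library, and IRT1, the iron transporter of the root, had one in abh1 alone. GRIK1, a kinase that activates CIPK24, had 1.39 and 1.33 in abh1 and none in Col-0_CHX, while GRIK2 had 1.30 and 1.30 against 1.35 and 0.850. RBOHF, the oxidase that CIPK26 phosphorylates, had 1.22 and 1.18 against 1.82 and 0.744.

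The SnRK1 and SnRK2 kinases share the catalytic domain type with the CIPK family but bind no CBL. As deposited they were lower in abh1 at 7 of 11 loci, against 72.2% of all loci. The count was also 7 after centring and with quantile normalization. Their median log2 difference was -0.39, and -0.24 over the 6 without repeated values. None passed limma's test over all loci, and 5 were lower and 0 higher at an unadjusted p under 0.05, against 17.2% and 2.84% of all loci. SNRK2.7 had 0.919 and 0.972 in abh1 against 2.38 and 2.5, and SNRK2.10 had 1.04 and 1.05 against 1.64 and 1.53 (limma adjusted p = 0.167 and 0.180). SNRK2.9 had 0.833 and 0.667 against 2 and 2 (log2 difference -1.42 ± 0.18 SE, limma adjusted p = 0.167), and both SNRK2.7 and SNRK2.9 held repeated values. SNRK2.2, a kinase of abscisic acid signalling, had 0.791 and 0.825 against 1.16 and 1.11 (-0.49 ± 0.13, limma adjusted p = 0.206). SNRK2.10 alone of the list passed over loci without repeated values (limma adjusted p = 0.0450), where 8.03% of loci were called lower. No locus of that set passed after centring. The energy sensor kinases differed among themselves. KIN11 had 1.28 and 1.38 against 1.95 and 1.87, while KIN10 had 1.02 and 1.02 against 0.774 and 1.31.

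The calcium-dependent protein kinases (CPK) carry their own calcium sensor in the same protein. As deposited they were lower in abh1 at 17 of 25 loci, against 72.2% of all loci. The count was 13 after centring and 14 with quantile normalization. Their median log2 difference was -0.22, and -0.37 without the first abh1 library and -0.12 over the 14 without repeated values. None passed limma's test over all loci, and 8 were lower and 0 higher at an unadjusted p under 0.05, against 17.2% and 2.84% of all loci. CPK31 had 0.903 and 0.797 in abh1 against 2.62 and 2.4 (log2 difference -1.57 ± 0.15 SE, limma adjusted p = 0.167), and CPK22 had 1.3 and 0.694 against 2.75 and 3 (-1.60 ± 0.36, limma adjusted p = 0.181). Both held repeated values. CPK6, a kinase of guard cell signalling, had 0.580 and 0.654 in abh1 against 1.42 and 1.12 (limma adjusted p = 0.168, and 0.0422 over loci without repeated values). In that set without repeated values 8.03% of loci were called lower, and no locus passed after centring. CPK21 had 1.06 and 0.990 against 1.75 and 1.80, and CPK13 had 1.16 and 1.18 against 1.63 and 1.75. Whether any of these lists differed from the 10 CIPK genes was not tested.

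Among 3376 loci with a symbol and without repeated values, the 3 nearest to the median profile of the 10 over the 4 libraries, by Euclidean distance of log2 indices, were CT-BMY, RAB7B and CPK4, at 0.046, 0.048 and 0.050. CT-BMY, a plastid beta-amylase, had 1.16 and 1.11 in abh1 against 1.55 and 1.46. RAB7B, a small GTPase of the vacuole route, had 1.12 and 1.12 against 1.57 and 1.46. CPK4, a calcium-dependent kinase of abscisic acid signalling, had 1.17 and 1.16 against 1.58 and 1.51. The profile lay near the median of all loci in abh1 and above it in Col-0_CHX. How many loci lie close to it was not counted, and with 4 libraries the nearness is a description only.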

How the data were processed

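The members and gene lists were chosen with earlier results of these data known. Per the submitters' processing notes, the tools were cutadapt 1.4.2 and STAR 2.4.0, and the genome TAIR10. Each library's deposited table pairs gene models with a decay index, a linear ratio. Its formula, read minimum, annotation and depth are not stated in the sources used. Symbols came from RefSeq (TAIR10.1, names and neighbours only), where all names in the lists were found. Indices were log2 transformed without a pseudocount. The 17049 loci in all 4 libraries were fitted with limma 3.58.1 in R 4.3.3 (lmFit, eBayes, no covariate), with Benjamini-Hochberg adjustment over all of them and a threshold of 0.05. Errors (SE) are from this fit, whose eBayes step draws the spread of each locus toward that of all loci. They are thus not the spread of a gene's own libraries alone. The fit was tested on simulated data that had the average replicate spread seen here, the same for all loci and both groups. The simulation leaves out the unequal spread and the repeated values of these data, so nothing is read from it. Lists are described by counts and medians. Replicates differed, so each counted once. Alternatives left out each library, added a replicate block, centred or quantile normalized the libraries, dropped loci whose value over 10 loci of a library shared, or widened the loci. Beyond the 10, text names follow a rule: up to 5 loci per list by smallest p, every CIPK, CBL1, CBL4, CBL9, SOS1, AKT1 and the 3 nearest profiles. Further targets and regulators outside the rule, KIN10, and the ranking over shared loci in place of all listed loci were chosen after values were seen. Python 3.11.15 with pandas 2.3.3, numpy 2.4.6 and matplotlib 3.10.9 did the rest.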

Additional observations from a re-analysis of the deposited data

How the results depend on the processing

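Over all loci limma called 0 at an adjusted p of 0.05 (2938 lower and 484 higher in abh1 at an unadjusted p under 0.05), 0 under 0.1 and 0 with the replicate block. Over loci without repeated values it called 567, and with alternatives chosen after seeing the data 216 with the replicate block, 0 after centring, and 0 to 1957 with 1 library left out (0 without either abh1 library, 1137 without the first and 1957 without the second Col-0_CHX library). With a library left out, the spread comes from the other group alone and the single library left is taken to have that same spread. Over these loci the median fold between replicates was 1.07 in abh1 and 1.14 in Col-0_CHX, so the counts say nothing of stability. Same-numbered libraries did not deviate together (r = -0.0043 across loci), which cannot exclude that they were made together. The labels state no pairing, so the main fit used none. In this balanced design the replicate block cannot change a list's median (-0.45 for the 10 CIPK genes).

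With 1 library left out the median log2 difference ran from -0.47 to -0.35 for the 10 CIPK genes, -0.49 to -0.26 for the other CIPK genes, -0.54 to -0.11 for the CBL sensors, -0.69 to -0.51 for targets and regulators, -0.52 to -0.44 for SnRK kinases and -0.37 to -0.22 for CPK kinases. Centring, which takes out the shift of whole libraries, gave -0.23, -0.081, -0.028, -0.43, -0.17 and -0.00034 in that order. Quantile normalization gave -0.15, 0.072 (turned), -0.035, -0.32, -0.12 and -0.024, and turned CIPK23 to 0.015. Without repeated values the medians were -0.34 for targets, -0.24 for SnRK and -0.12 for CPK kinases. The mean in place of the median gave -0.16 for the other CIPK genes, -0.35 for the CBL sensors and -0.61 for targets. Causes were not tested. Depth is unknown, which limits single genes most where replicates differ widely.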

Other observations

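Among the CPK kinases, 33 of 34 were listed in each abh1 library and 25 in each Col-0_CHX library. The 8 with an index in abh1 alone were CPK14, CPK16, CPK17, CPK18, CPK20, CPK24, CPK25 and CPK34, several of which are known from pollen. Some had a high index. CPK16 had 5.97 and 3.98, CPK24 had 2.24 and 2.46, CPK20 had 1.98 and 2.62, and CPK17 had 1.65 and 1.69. CPK34, the close relative of CPK17 in pollen tube growth, had 1.11 and 0.981. These genes were named after their values were seen. Of the loci shared by the abh1 libraries, 78.0% were also shared by the Col-0_CHX libraries, against 75.8% of the CPK loci and 88.5% of the 26 CIPK loci. The 26 hold the 10 genes chosen on this contrast, all of them listed in every library. The 16 other CIPK loci gave 81.25%.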
